A study of Mus musculus with 2 samples.

Results

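The 10 integrin genes Itgam, Itgal, Itgb2, Itgb1, Itga4, Itga6, Itga9, Itgav, Itgb5 and Itgb7 were followed in liver macrophages of FABP7 KO and WT mice that carried MC38 liver metastases. They were taken by gene symbol from the 22322 genes of the deposited table, in which all 10 were found, and they make up 10 of the 27 integrin genes listed here. The data comprised 1 library from KO mice, which lack FABP7 in the whole body, and 1 library from WT mice. The labels give the strain of both as C57BL/6, and the methods give C57BL/6 J as the background of the KO line. Male mice aged 6 to 8 weeks, as the study's methods give for all experiments, received 500000 MC38 cells, a mouse colon carcinoma line, in 100 µl into the spleen, and macrophages were taken from the liver on day 10 by F4/80 positive selection. One label calls the KO sample a knockdown, the others and the methods a knockout, and how many mice each library stands for is not stated in the labels or methods.

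Integrins are receptors made of 1 α and 1 β chain that tie a cell to matrix or to other cells. The chains pair in set combinations, so an α chain reaches the surface only with a fitting β chain. The β2 chain pairs with αL (LFA-1) and αM (Mac-1, CD11b), which hold leukocytes to ICAM proteins and, for αM, bind complement fragments and fibrinogen. The β1 chain pairs with α4, which binds VCAM-1 and fibronectin, with α6, a laminin receptor, and with α9, which binds tenascin-C and osteopontin. The α4 chain also pairs with β7, a gut homing receptor of lymphocytes, and αv pairs with β5 to bind vitronectin. In mice, liver-resident Kupffer cells (KCs) are known for low CD11b and high F4/80, and incoming monocyte-derived macrophages for higher CD11b.

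The values are FPKM, that is, fragments scaled to gene length and library total, so levels of different genes can be compared within a library. The steps between low values gave a depth of about 18000000 fragments for KO and 18200000 for WT. At these depths, 91.4% of 152 KO values and 89.8% of 157 WT values lay within 0.15 of a whole fragment. By spacing alone, 30% would do so at a depth not fitted to the values. The depth was chosen for the best fit to these same values, so 30% is not the level to expect for it. Fabp7 stood at 0.69 FPKM in the KO and 354 FPKM in the WT library, as the genotypes are labelled. The macrophage label was borne out by the pan-macrophage genes Csf1r (3173 FPKM in KO, 2372 FPKM in WT) and C1qb (2944 FPKM in KO, 2422 FPKM in WT), and by the KC genes Cd5l (6001 FPKM in KO, 6696 FPKM in WT) and Clec4f (4156 FPKM in KO, 3188 FPKM in WT). Each genotype had 1 library, which leaves the spread between mice unknown, and differences were therefore described without a test or a replicate check. Intervals cover counting error only and rest on the estimated depth and on the longest annotated transcript of each gene.

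Liver macrophages carried a small set of integrin mRNAs at high level. Itgal (ENSMUSG00000030830), the αL chain of LFA-1, was the highest of the 10 genes in both libraries, at 322 FPKM in KO and 400.0 FPKM in WT macrophages. Its partner Itgb2 (ENSMUSG00000000290), the common leukocyte β chain, followed with 256 FPKM in KO and 253 FPKM in WT macrophages. Itgb1 (ENSMUSG00000025809), the chain with the most α partners, came next at 184 FPKM in KO and 183 FPKM in WT macrophages. Even Itgb1, the lowest of these 3, stood above 96.6% of measured genes in KO and 96.4% in WT. Itgb5 (ENSMUSG00000022817), which pairs only with αv, was at 167 FPKM in KO and 111 FPKM in WT macrophages. Itga9 (ENSMUSG00000039115) was at 141 FPKM in KO and 107 FPKM in WT macrophages, which made it the second α chain after Itgal. The remaining genes lay lower, with Itgav (ENSMUSG00000027087) at 41.0 FPKM in KO and 28.3 FPKM in WT, and Itga4 (ENSMUSG00000027009) at 34.5 FPKM in KO and 41.1 FPKM in WT. Itgam (ENSMUSG00000030786), the CD11b gene, was at 18.5 FPKM in KO and 12.55 FPKM in WT, and Itgb7 (ENSMUSG00000001281) at 13.3 FPKM in KO and 15.5 FPKM in WT. Itga6 (ENSMUSG00000027111) was close to 1 FPKM, with 1.18 FPKM in KO and 1.34 FPKM in WT, which is about 91.5 fragments in KO and 105 in WT. The order of the 5 highest genes was the same in both libraries. Below them, Itgav stood above Itga4 and Itgam above Itgb7 in KO, and both orders were turned in WT. Whether neighbours in this order differ beyond the spread between mice cannot be said from 1 library each.

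**Figure D1:**
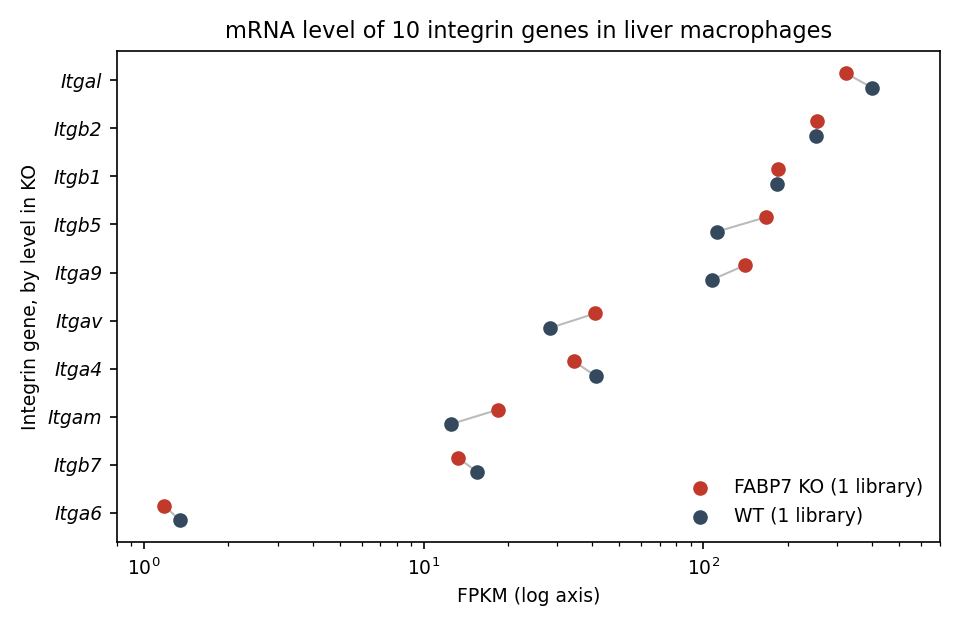
FPKM (x axis, log scale) of the 10 integrin genes (rows, by level in KO) in the FABP7 KO library (red) and the WT library (dark blue), 1 point per library with no error bars. Itgal is highest at 322 FPKM in KO and 400.0 FPKM in WT, Itga6 lowest at 1.18 FPKM in KO and 1.34 FPKM in WT, and Itgb2 and Itgb1 have nearly the same value in both.

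None of the 10 genes differed 2-fold between KO and WT macrophages. Ratios are given as log2((KO + 1)/(WT + 1)) of the FPKM values, and a gene counted as measured when either library reached 1 FPKM, which held for 10770 genes and, in both libraries, for all 10 integrin genes. By that measure 0 of 10 were 2-fold higher and 0 of 10 were 2-fold lower in KO, where 2.21% of all measured genes were 2-fold higher and 2.95% were 2-fold lower. At 1.5-fold the counts were again 0 higher and 0 lower, where 8.02% of measured genes were higher and 7.37% lower. Against shares this small, counts of 0 among 10 genes do not set the integrins apart. The log2 ratios lay between -0.31 (Itgal) and 0.58 (Itgb5), with 6 above 0 and 4 below. Their median was 0.01, beside 0.004 over all measured genes, and the median absolute log2 ratio was 0.28, beside 0.24 over all measured genes. Scaling KO to pan-macrophage markers moved all of these ratios down, with the median of all measured genes at -0.22, Itgb5 at 0.33, Itgam at 0.28, Itgav at 0.27 and Itga9 at 0.14, and with Itgal at -0.56, Itga4 at -0.49 and Itgb7 at -0.45.

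**Figure D2:**
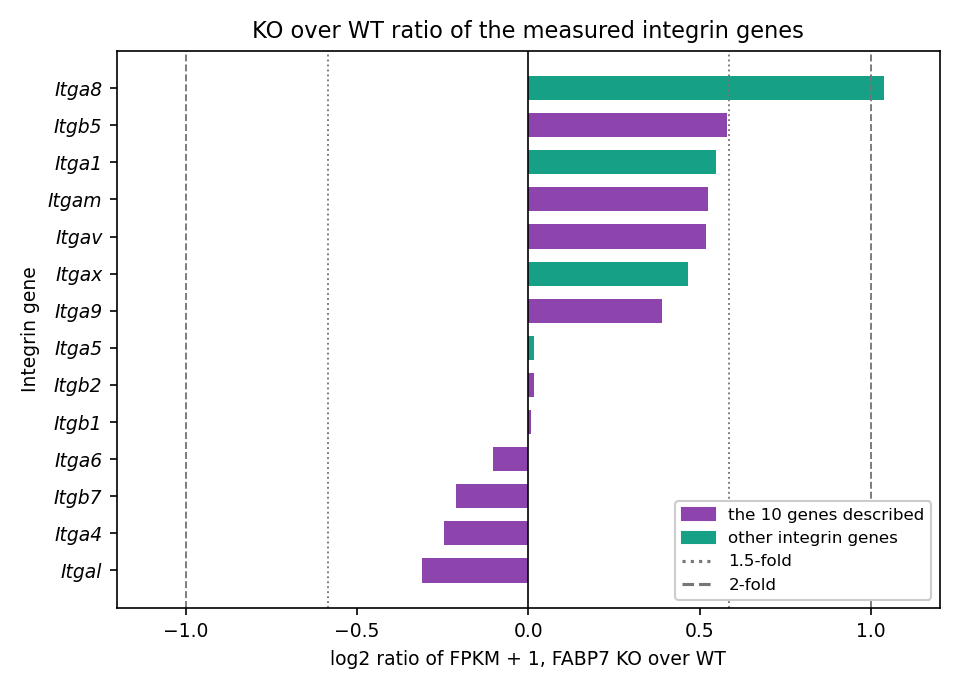
KO to WT log2 ratio with 1 FPKM added (x axis) for the 14 integrin genes measured at 1 FPKM or more (rows, by ratio), with the 10 genes described in purple and other integrin genes in green. Dotted lines mark 1.5-fold and dashed lines 2-fold. Itgb5 at 0.58 ends just inside the dotted line, and Itga8 at 1.04 is the only bar past the dashed line.

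Among the β2 integrins the β chain was level while its α chains had ratios of opposite sign. Itgb2 had a log2 ratio of 0.02 with 1 FPKM added and a counting interval of -0.02 to 0.05 without it, though its ratio was -0.24 when KO was scaled to pan-macrophage markers. Itgal was 0.81 times its WT level in KO, a log2 ratio of -0.31 (counting interval -0.33 to -0.29). Itgam was 1.47-fold higher in KO, a log2 ratio of 0.53 with the pseudocount and a counting interval of 0.45 to 0.67 without it. Itgal thus had the lowest and Itgam the second highest ratio of the 10 genes. Itgal transcripts were 17.4 times as abundant as Itgam transcripts per length in KO and 31.9 times in WT macrophages. Itgam is a gene of neutrophils and monocytes as well, and the markers of these cells differed between the libraries. All 8 measured neutrophil markers had ratios above 0 and 7 were 2-fold higher in KO. The 11 listed markers summed to 116 FPKM in KO and 40.3 FPKM in WT. Csf3r, the G-CSF receptor gene, was at 51.3 FPKM in KO and 27.3 FPKM in WT, and S100a9, a calprotectin subunit, at 25.3 FPKM in KO and 4.31 FPKM in WT. The neutrophil surface marker gene Ly6g was at 0.12 FPKM in KO and 0.18 FPKM in WT. Of 6 measured monocyte markers, 2 had ratios above 0 and 4 below, and the 7 listed summed to 456 FPKM in KO and 948 FPKM in WT, nearly all of it Plac8 (427 FPKM in KO, 908 FPKM in WT). In RNA of a mixed isolate, fewer cells of a type and less RNA per cell cannot be told apart, and the part of these cells in the Itgam and Itgal values was not tested.

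The β1 chain was level as well in the deposited scale, and its α partners differed in direction. Itgb1 had a log2 ratio of 0.01 (counting interval -0.03 to 0.04), or -0.25 when KO was scaled to pan-macrophage markers. Itga9 was 1.31-fold higher in KO, a log2 ratio of 0.39 (counting interval 0.36 to 0.42), and Itga4 was 0.84 times its WT level, a log2 ratio of -0.25 (counting interval -0.30 to -0.20). Itga9 was therefore 4.08 times as abundant as Itga4 in KO and 2.61 times in WT. Itgb7, the other partner of α4, was 0.85 times its WT level in KO, a log2 ratio of -0.21 with the pseudocount and a counting interval of -0.38 to -0.08 without it. The α4 and β7 chains, which form one receptor, thus had close ratios, both below 0. Itga6 had a log2 ratio of -0.10, and its counting interval of -0.59 to 0.22 held 0, so no difference was detectable at this depth. Itgal, Itga4 and Itgb7 are also expressed by lymphocytes. All 3 measured T cell markers had ratios above 0, and the 8 listed summed to 38.1 FPKM in KO and 17.1 FPKM in WT, most of it Icos (33.1 FPKM in KO, 13.9 FPKM in WT). The CD3 chains of the T cell receptor complex were low, with Cd3g at 1.63 FPKM in KO and 0.97 FPKM in WT, Cd3d at 0.58 FPKM in KO and 0.27 FPKM in WT, and Cd3e at 0.34 FPKM in KO and 0.49 FPKM in WT. B and plasma cell markers summed to 32.1 FPKM in KO and 13.2 FPKM in WT, with Cd79b, a chain of the B cell receptor, at 18.1 FPKM in KO and 7.89 FPKM in WT and Jchain, the joining chain of secreted antibodies, at 7.11 FPKM in KO and 3.84 FPKM in WT. NK cell markers summed to 7 FPKM in KO and 10.3 FPKM in WT, and all 3 measured ones had ratios below 0. Among these were the granzyme genes Gzma (3.10 FPKM in KO, 3.77 FPKM in WT) and Gzmb (0.89 FPKM in KO, 3.38 FPKM in WT). Below the floor, Ncr1 (0.42 FPKM in KO, 0.11 FPKM in WT), Klrb1c (0.50 FPKM in KO, 0.39 FPKM in WT) and Prf1 (0.43 FPKM in KO, 0.27 FPKM in WT) were higher in KO. Klre1 (0.09 FPKM in KO, 0.23 FPKM in WT) was lower. No marker of these 3 lists was at 0 in either library. The T and B cell sums were thus higher in KO, while the NK cell sum and the 3 integrin genes were lower. The part of lymphocytes in these values was not tested.

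The αv and β5 chains, which form the vitronectin receptor αvβ5, both had higher values in KO macrophages and in nearly the same proportion. Itgb5 was 1.499-fold higher, a log2 ratio of 0.58 (counting interval 0.54 to 0.63), the largest among the 10 genes. Itgav was 1.45-fold higher, a log2 ratio of 0.52 with the pseudocount and a counting interval of 0.47 to 0.59 without it. For comparison, 8.13% of measured genes had a ratio at least as high as Itgb5 and 9.83% as high as Itgav, so differences of this size were not rare between these libraries. Both genes are expressed in endothelial and stromal cells too. Sinusoidal endothelial markers summed to 272 FPKM in KO and 148 FPKM in WT, with 9 of 10 above 0 and 7 past 2-fold, and Stab2, a scavenger receptor of these cells, was at 118 FPKM in KO and 79.9 FPKM in WT. Clec4g, a lectin of sinusoidal endothelium, was at 48.5 FPKM in KO and 14.2 FPKM in WT, while Dnase1l3, the 1 marker of that list below 0, was at 30.9 FPKM in KO and 31.5 FPKM in WT. Markers of stellate cells and fibroblasts summed to 162 FPKM in KO and 72.0 FPKM in WT, most of it Ecm1 (99.0 FPKM in KO, 44.0 FPKM in WT). All 7 measured markers of that list were above 0, among them Dcn (37.1 FPKM in KO, 13.5 FPKM in WT). Of 10 pan-macrophage markers, 9 had ratios above 0, with a median log2 ratio of 0.25 and a sum of 16628 FPKM in KO and 12816 FPKM in WT. KC markers had a median log2 ratio of 0.20 and summed to 17189.5 FPKM in KO and 16613 FPKM in WT. Of these 10 KC markers, 7 had ratios above 0 and 3 below, among the latter Marco (714 FPKM in KO, 1377 FPKM in WT). The part of any of these cells in the Itgb5, Itgav and Itga9 values was not tested.

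The promoters of Itgb5, Itgam and Itgav are shown because these 3 genes had the highest log2 ratios of the 10. Sequences were available by symbol for 7 of the 10 genes in RefSeq's GRCm38.p6 table and cover the 250 bases before the annotated start, with capitals for 2 short motifs. These are the GC box GGGCGG, which SP1 family factors bind, and the purine-rich core GAGGAA, which PU.1 and other ETS family factors of myeloid cells bind, each searched on both strands (CCGCCC and TTCCTC), and no match overlaps another in the windows printed. The windows are chr16:33829415-33829664 for Itgb5, chr7:128062390-128062639 for Itgam and chr2:83724147-83724396 for Itgav, all on the plus strand.
Itgb5: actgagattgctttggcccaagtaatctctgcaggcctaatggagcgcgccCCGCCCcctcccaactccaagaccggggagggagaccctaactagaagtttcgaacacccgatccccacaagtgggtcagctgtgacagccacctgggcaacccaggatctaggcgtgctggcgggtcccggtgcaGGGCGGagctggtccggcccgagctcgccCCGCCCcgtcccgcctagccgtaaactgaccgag
Itgam: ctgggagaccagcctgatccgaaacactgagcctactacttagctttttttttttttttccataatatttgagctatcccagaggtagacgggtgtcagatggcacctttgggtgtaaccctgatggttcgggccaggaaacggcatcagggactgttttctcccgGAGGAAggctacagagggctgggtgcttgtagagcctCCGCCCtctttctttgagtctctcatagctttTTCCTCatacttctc
Itgav: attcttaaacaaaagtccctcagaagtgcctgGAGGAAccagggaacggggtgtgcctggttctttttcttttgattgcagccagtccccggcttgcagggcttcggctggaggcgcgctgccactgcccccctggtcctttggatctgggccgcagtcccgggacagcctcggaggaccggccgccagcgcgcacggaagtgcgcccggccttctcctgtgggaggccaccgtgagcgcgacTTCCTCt

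The Itgb5 window held 3 GC boxes and 0 purine-rich cores. The Itgam window held 1 GC box and 2 purine-rich cores. The Itgav window held 0 GC boxes and 2 purine-rich cores. Over the 7 windows, 4 held a GC box (Itgb5, Itgam, Itgb1 and Itga4) and 3 the purine-rich core (Itgam, Itgav and Itgb1), while 32.7% and 23.3% of all 32851 promoter windows of that length held them. The windows of Itgb5 and Itgav thus shared neither motif. The mRNA data do not measure binding, and a match is a description of letters.

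The makeup of the integrin pool was compared within each library, where scaling between libraries plays no part. All 27 integrin genes summed to 1205 FPKM in KO and 1174 FPKM in WT, of which the 10 genes gave 97.8% in KO and 98.2% in WT. Of the summed FPKM of 18 α chain genes, Itgal took 55.2% in KO and 65.5% in WT, Itga9 24.1% in KO and 17.5% in WT, and Itgav 7.03% in KO and 4.64% in WT. Of the 9 β chain genes, Itgb2 took 41.2% in KO and 44.9% in WT, Itgb1 29.6% in KO and 32.5% in WT, and Itgb5 26.9% in KO and 19.8% in WT. LFA-1 αL therefore held the largest share of α chain mRNA in both libraries, with a smaller share in KO, where α9, αv and β5 had larger ones.

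**Figure D3:**
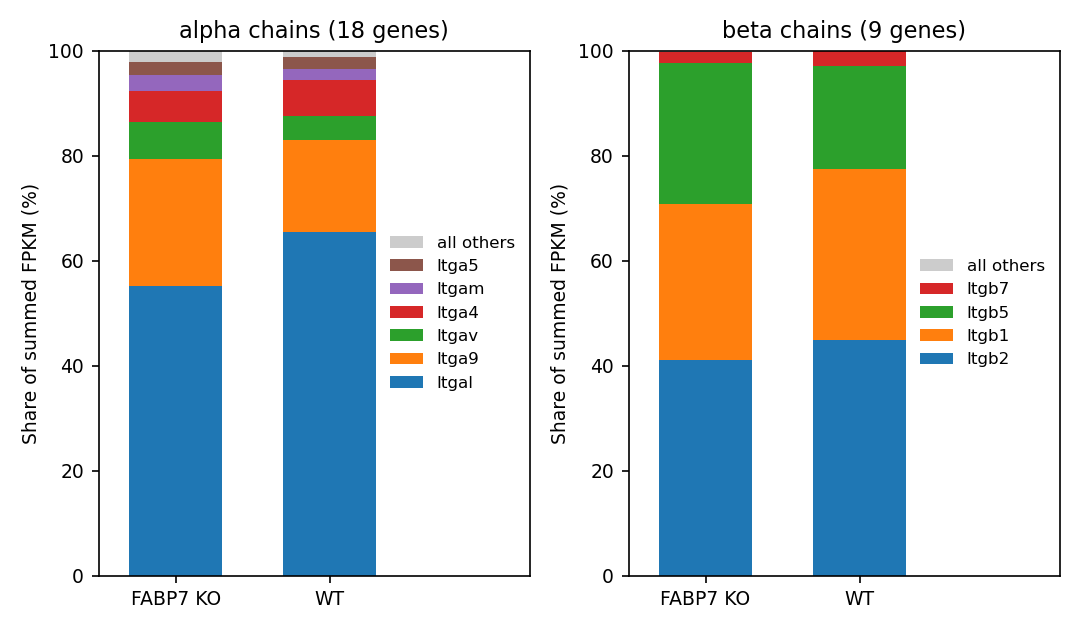
Share of the summed FPKM (y axis, percent) taken by each α chain gene (left panel, 18 genes) and β chain gene (right panel, 9 genes), with the FABP7 KO bar left of the WT bar, 1 library each and no error bars. Itgal takes 55.2% of the α chain FPKM in KO and 65.5% in WT, and Itgb5 26.9% of the β chain FPKM in KO and 19.8% in WT.

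Set against their partners, most chains did not come in equal amounts. The 4 α partners of β2 summed to 1.36 times the Itgb2 level in KO and 1.65 times in WT, nearly all of it Itgal. The 12 α partners of β1, some of which also pair with other β chains, summed to 1.28 times the Itgb1 level in KO and 1.06 times in WT. Itgb5 was 4.07 times as abundant as Itgav in KO and 3.93 times in WT. The Itgav to Itgb5 balance therefore differed by only -0.06 on the log2 scale between KO and WT, and that of Itga4 to Itgb7 by -0.03. Against the level β chains, the balance was shifted by 0.51 for Itgam over Itgb2, by -0.33 for Itgal over Itgb2, by 0.38 for Itga9 over Itgb1 and by 0.51 for Itgav over Itgb1. These are levels of mRNA, and the receptors on the cell surface were not measured in these libraries.

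Of the 17 integrin genes outside the 10, only 4 reached 1 FPKM in either library. Itga5, the fibronectin receptor chain α5, was level at 14.3 FPKM in KO and 14.1 FPKM in WT. Itgax, the CD11c chain of dendritic cells and some macrophages, was at 6.29 FPKM in KO and 4.28 FPKM in WT, a log2 ratio of 0.47 beside 0.53 for Itgam, and Itgam stood at 2.94 times Itgax in KO and 2.93 times in WT. Dendritic cell markers, which stood beside Itgax, summed to 30.2 FPKM in KO and 17.5 FPKM in WT, most of it the lectin gene Clec9a (25.8 FPKM in KO, 15.4 FPKM in WT), with the transcription factor gene Zbtb46 at 1.64 FPKM in KO and 0.51 FPKM in WT. Of 3 measured dendritic cell markers, 2 had ratios above 0 and 1 below, the latter being Xcr1 with a log2 ratio of -0.55. The part of dendritic cells in the Itgax value was not tested. Itga1, a collagen receptor chain, was at 1.34 FPKM in KO and 0.60 FPKM in WT. Itga8, an α chain found in stellate cells and other stromal cells, was at 1.38 FPKM in KO and 0.16 FPKM in WT, a log2 ratio of 1.04 that rests on about 144 fragments in KO and 16.9 in WT. It was the only integrin gene past 2-fold with 1 FPKM added, and the call was lost with a floor of 5 FPKM and when KO was scaled to pan-macrophage markers. It stood beside the stellate cell and fibroblast markers given above, whose part in it was not tested. The platelet integrin chains Itgb3 (0.83 FPKM in KO, 0.34 FPKM in WT) and Itga2b (0.62 FPKM in KO, 0.26 FPKM in WT) stayed below the floor beside platelet markers that summed to 13.4 FPKM in KO and 7.47 FPKM in WT, nearly all of it the chemokine gene Pf4 (12.3 FPKM in KO, 6.95 FPKM in WT), with Ppbp at 0.41 FPKM in KO and 0.15 FPKM in WT. By mRNA, αv had hardly any β partner in these libraries besides β1 and β5. Itgb5 made up 99.5% in KO and 99.7% in WT of the β3, β5, β6 and β8 mRNA. Itgae, the other partner of β7, was at 0.14 FPKM in KO and 0.13 FPKM in WT, and Itgb6 was at 0 in both.

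The ligands of these receptors were measured in the same RNA. Of 34 ligand genes, 21 passed the floor, of which 10 were 1.5-fold higher and 2 were 1.5-fold lower in KO (8.02% and 7.37% of all measured genes), with a median log2 ratio of 0.51. Vcam1, the ligand of α4β1 and α9β1, was the highest, at 243 FPKM in KO and 393 FPKM in WT, a log2 ratio of -0.69. It was 1 of the 2 lower genes, beside the laminin chain gene Lamb2 (1.62 FPKM in KO, 3.35 FPKM in WT). Of the α chains of these 2 receptors, Itga4 was lower in KO (34.5 FPKM in KO, 41.1 FPKM in WT) and Itga9 higher (141 FPKM in KO, 107 FPKM in WT). Icam1, the main ligand of LFA-1, was at 98.7 FPKM in KO and 81.2 FPKM in WT, and Tgfb1, whose latent form αv integrins bind, at 88.4 FPKM in KO and 77.6 FPKM in WT. At 2-fold, 3 of the 21 ligand genes were higher and 0 lower in KO, where 2.21% of all measured genes were higher and 2.95% lower. These were the basement membrane gene Nid1 (4.64 FPKM in KO, 1.30 FPKM in WT), Postn, the periostin gene, which αv integrins bind (3.66 FPKM in KO, 1.18 FPKM in WT), and Jam2, a junction protein that binds α4β1 in man (4.34 FPKM in KO, 1.55 FPKM in WT). Among genes named after their values were seen, Vtn, the vitronectin ligand of αvβ5, was at 12.3 FPKM in KO and 6.49 FPKM in WT, and the fibrinogen gene Fga, a Mac-1 ligand, at 26.5 FPKM in KO and 14.3 FPKM in WT. Vtn and the fibrinogen genes are made by hepatocytes, whose 12 markers summed to 1104 FPKM in KO and 544 FPKM in WT, with 10 above 0. Most of both sums was Trf, the transferrin gene, at 642 FPKM in KO and 306 FPKM in WT. Alb, the albumin gene, was at 305 FPKM in KO and 144 FPKM in WT. The part of hepatocyte RNA in these ligand values was not tested.

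None of the genes for proteins that activate integrins from inside the cell reached 2-fold with 1 FPKM added. Of 44 adaptor, activator and partner genes, 41 passed the floor, with 0 past 2-fold in either direction (2.21% higher and 2.95% lower over all measured genes). Their median log2 ratio was -0.01, with 20 above 0 and 21 below. The highest were the signal adaptors Tyrobp (1174 FPKM in KO, 1130 FPKM in WT) and Fcer1g (762 FPKM in KO, 754 FPKM in WT), which β2 integrins use for signaling, and Fyb, an adaptor of integrin activation (476 FPKM in KO, 527 FPKM in WT). Named after their values were seen, Tln1, the talin that binds β chain tails, was at 197 FPKM in KO and 189 FPKM in WT, and Fermt3, the kindlin of blood cells, at 142 FPKM in KO and 145 FPKM in WT. At 1.5-fold, 3 were higher and 1 lower, all with low values, namely Fermt2 (4.19 FPKM in KO, 1.75 FPKM in WT), Bcar1 (1.34 FPKM in KO, 0.32 FPKM in WT), Src (4.26 FPKM in KO, 2.06 FPKM in WT) and the lower Tln2 (0.33 FPKM in KO, 1.02 FPKM in WT). Fermt2 is the kindlin of stromal and other cells outside the blood.

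**Figure D4:**
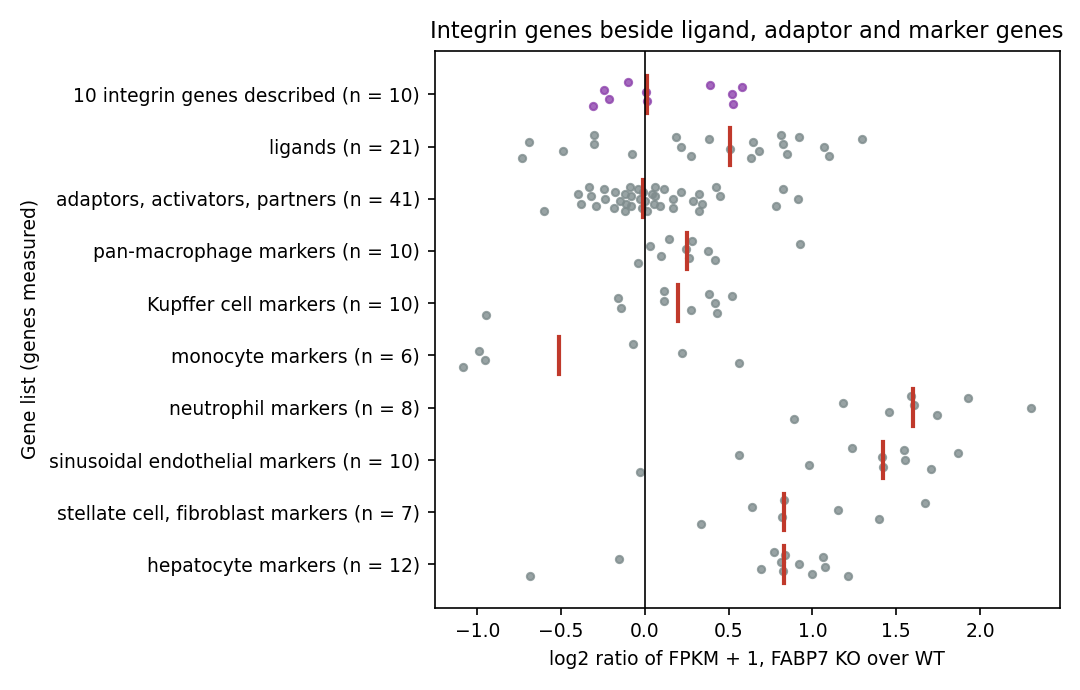
KO to WT log2 ratio with 1 FPKM added (x axis) of the measured genes in 10 gene lists (rows), with 1 point per gene and a red line at each list's median. The integrin genes (purple, median 0.01) and adaptors (median -0.01) center on 0, while ligands (0.51), neutrophil markers (1.60) and sinusoidal endothelial markers (1.42) lie to the right and monocyte markers (-0.51) to the left.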

How the data were processed

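Liver macrophage mRNA was measured in 1 KO and 1 WT library, assigned by sample titles and column names. The authors deposited FPKM values with 2 decimals, with TopHat2 2.1.1 and Bowtie2 2.2.8 listed in the submitters' processing notes. Sources used here do not give the genome build, annotation or counter, so the only coordinates printed are those of RefSeq promoters on GRCm38.p6. Both single library tables held the same values as the joint table.

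Symbols came from GENCODE M21 for 22267 of 22322 IDs. Log2 ratios of KO over WT used a pseudocount of 1 FPKM and a floor of 1 FPKM in at least 1 library, with 2-fold as the size rule and 1.5-fold beside it. Depth was estimated from the steps of low FPKM values of genes with a single transcript, and 95% counting intervals from fragments so derived, without the pseudocount. The depth estimate and the size rule were tested on simulated data with counting error only, made and read with the same transcript lengths. That test covers neither the spread between mice nor errors in the lengths. How reads of overlapping genes were assigned is not given, but 5 of the 10 genes overlap no annotated gene, and where Itgam and Itga4 overlap a gene of the table, that gene was at most at 0.58 FPKM.

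The integrin genes and all lists were chosen with earlier results of these data known. Named were all 10 genes, other integrin genes at 1 FPKM or more, ligands and adaptors past 2-fold or among the 3 of highest mean FPKM in their list, and the 2 markers of highest mean FPKM in each list the text uses, of which 1 is not reported here. Ly6g, Cd3d, Cd3e, Ncr1, Klrb1c, Prf1, Klre1, Xcr1, Marco, Dnase1l3, Lamb2, Vtn, Fga, Tln1, Fermt3, Fermt2, Bcar1, Src, Tln2, Itgb3, Itga2b, Itgae and Itgb6 were named after their values were seen. No gene was named for a pattern like that of an integrin, since a pair of libraries gives only a ratio. Alternatives were 3 scalings of KO, the 1.5-fold rule, a floor of 5 FPKM or none, and 0.1 FPKM as pseudocount. Tables were handled in pandas 2.3.3 and NumPy 2.4.6 under Python 3.11.15 and drawn with Matplotlib 3.10.9.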

Additional observations from a re-analysis of the deposited data

How the results depend on the processing

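Of 59 log2 ratios of the 10 genes at other settings, none reached 2-fold and 2 changed sign, namely Itgb2 (-0.24) and Itgb1 (-0.25) with KO scaled to pan-macrophage markers (KO divided by 1.19), a scaling that shifted the median log2 ratio of all measured genes to -0.22 and that of the 10 genes to -0.24, with Itgb5 at 0.33 and Itgal at -0.56. Itgb5 passed 1.5-fold when KO was scaled by genes at 10 FPKM or more (0.62) or by library totals that left out genes of hepatocytes, erythroid cells and mitochondria (0.63), and this second scaling gave the 10 genes a median of 0.062. The 32 values of chain balance at other settings moved by less than counting error. Scaling KO divides both chains of a pair by the same factor, so it could shift their balance only through the added FPKM. The balance values under scaling are therefore no check of the balance, and the remaining ones tested only the size of the pseudocount. Other integrin genes past 2-fold numbered 2 when 0.1 FPKM was added, and 0 at a floor of 5 FPKM or under scaling to pan-macrophage markers. Over all measured genes, 562 were higher and 444 lower when 0.1 FPKM was added, 143 and 232 at a floor of 5 FPKM, 117 and 466 under scaling to pan-macrophage markers, and 864 and 794 at 1.5-fold, against 238 and 318. What lay behind these shifts was not tested. Depth limits Itga6 and the genes under 1 FPKM, and no setting stands in for replicate mice.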

Other observations

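Adhesion genes outside the integrin family were looked at with a list added after the integrin values were seen. Of 24 genes listed, 22 were in the table and 16 passed the floor, with a median log2 ratio of 0.21. Past 2-fold were 2 upward and 0 downward, where 2.21% of all measured genes were higher and 2.95% lower. The highest levels were those of Siglec1, the sialoadhesin of tissue macrophages (453 FPKM in KO, 437 FPKM in WT), Cdh5, a cadherin known from endothelial junctions (450.3 FPKM in KO, 372 FPKM in WT), and Cd44, a hyaluronan receptor (307 FPKM in KO, 356 FPKM in WT). Cdh5 stood above all listed sinusoidal endothelial markers, of which Stab2 was highest (118 FPKM in KO, 79.9 FPKM in WT). Which cells carried the Cdh5 mRNA was not tested. Selplg, the P-selectin ligand of leukocytes, was at 73.0 FPKM in KO and 72.2 FPKM in WT, and Cd48, a surface protein of blood cells, at 132 FPKM in KO and 119 FPKM in WT. The 2 genes past 2-fold were the endothelial genes Esam (8.40 FPKM in KO, 2.15 FPKM in WT) and Mcam (3.03 FPKM in KO, 0.92 FPKM in WT), beside the sinusoidal endothelial markers, which had a median log2 ratio of 1.42. Pecam1, found on endothelium and leukocytes, was at 51.5 FPKM in KO and 38.7 FPKM in WT.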
